A study of Mus musculus with 15 samples.

Results

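The genes described here are the tumour necrosis factor (TNF) superfamily ligands and receptors measured in CD4 T cells before and after priming in vivo. They are the genes of the deposited count table whose symbol begins with Tnfsf or Tnfrsf followed by a number, plus Cd40lg, Cd40, Cd27, Cd70, Fas, Fasl, Lta, Ltb and Ltbr. This gave 41 genes of the 49492 in the table: 24 receptors, 16 ligands and 1 antisense gene, Tnfsf13os. Tnf itself is not among them and is given separately.

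The study sequenced RNA from OT-II T cells, CD4 T cells with a transgenic receptor for a peptide of ovalbumin, in 5 groups of 3 libraries each, 15 in all. Naive CD44lo CD62L+ donor cells (CD45.1+, sorted from lymph nodes and spleens of untreated CD45.1 × OT-II mice) made up 1 group and were never transferred. The other 4 groups were donor cells recovered from the mediastinal lymph node 5 days after immunization. The recipients, C57BL/6 (WT) or Batf3-/- mice, had received naive donor cells and, 24 h later, 3 intranasal doses of 60 μg ovalbumin with 30 μg papain, a protease allergen. Activated CD44hi donor cells were sorted by CD62L, a lymph node homing receptor, into WT CD62L-, WT CD62L+, Batf3-/- CD62L- and Batf3-/- CD62L+ groups. The Batf3 deletion was in the recipients, which lack a class of dendritic cells, and every sequenced cell was sorted as a CD45.1+ donor cell. The labels call the 3 replicates of a group independent and do not tie libraries to animals. The p-values therefore speak of the variation seen among these libraries. Naive and primed cells differ in organ, transfer and immunization together, and these cannot be told apart here.

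TNF superfamily ligands are mostly membrane-bound trimers that bind receptors with cysteine-rich extracellular domains. The receptors recruit TRAF adaptors and activate NF-κB and stress kinases, and those with a death domain, such as Fas, can also start caspase-dependent death. On CD4 T cells several receptors act as costimulators (OX40, GITR and CD27 among them), while ligands such as CD40L carry T cell help to B cells and dendritic cells.

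Library totals ran from 38082967 to 99380475 counts, with WT CD62L- replicate 3 the shallowest, and 19260 to 21331 genes had at least 1 count. The summed level of 7 T cell markers was 11673 to 18685 CPM in the 15 libraries (CPM, counts per 1000000 of the TMM-scaled library size). Cd4 averaged 822 CPM in naive cells and 1333 to 1523 CPM in the primed groups, so the label CD4 T cell was borne out by these markers. Transcripts known from other lymphocytes differed between naive and primed cells. Cd8b1 went from 50.8 CPM to between 15.7 and 23.1 CPM, and Klrb1c from 0.137 to between 7.56 and 25.9 CPM. Of 5 regulatory T cell markers, Foxp3 (16.1 CPM in naive cells) and Il2ra (18) were lower in the primed groups. Ikzf2 (1.24) and Ctla4 (4.68) were higher there. The summed level of 12 B cell markers was 44.5 to 47.9 CPM in naive libraries, 14.2 to 18.5 in WT CD62L-, 30 to 43.5 in Batf3-/- CD62L-, 125 to 152 in WT CD62L+ and 132 to 173 in Batf3-/- CD62L+ libraries. The 14 dendritic cell and macrophage markers summed to 18.1 to 32.7 CPM, with Clec9a at 0 in every library and Itgax at 0 in both CD62L- groups. Other markers of this list differed between naive and primed cells. Of the 12 tested, 3 were called higher than naive in each primed group, and 1 lower in each but WT CD62L+. Lyz2 averaged 4.66 CPM in naive cells and 10.7 to 14.6 CPM in the primed groups. Fscn1 went from 0.0984 to between 1.7 and 2.42 CPM and Ccl22 from 0 to between 0.418 and 2.41 CPM. Csf1r went from 10.5 to between 6.09 and 6.83 CPM. In bulk RNA, fewer cells of a type and less RNA per cell cannot be told apart.

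Of the 41 genes, 33 had enough counts to be tested and 8 did not. Cd70 (the CD27 ligand) and Tnfsf18 (the GITR ligand) had 0 counts in all 15 libraries, and the other untested genes were Tnfsf12, Tnfsf13, Tnfsf15, Tnfsf13os, Tnfrsf11b and Tnfrsf17, each with 15 to 51 counts over all libraries. Among the tested genes, 25 had at least 10 counts in every library, and 8 did not reach that in all 3 naive libraries: Tnfsf4, Tnfsf14, Tnfsf13b, Tnfrsf8, Tnfrsf21, Tnfrsf11a, Cd40 and Ltbr. Of these 8, Ltbr (the lymphotoxin beta receptor) and Tnfrsf11a (RANK, the receptor of Tnfsf11) stayed at or under 0.894 CPM in all libraries and were not called by edgeR in any comparison. Ltbr was called in Batf3-/- CD62L- cells against naive under DESeq2 and without replicate 1 of that group (edgeR adjusted p = 0.0711 with all libraries, lowest adjusted p 0.0361). The naive libraries held 0 counts of Ltbr, so these calls are read as descriptions. Adjusted p-values come from the quasi-likelihood test of edgeR, corrected by Benjamini and Hochberg's method over all 19942 genes tested. A level is given ± the SD over 3 libraries, SE belongs to a log2 fold change, and a gene is called where the adjusted p is under 0.05.

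**Figure D1:**
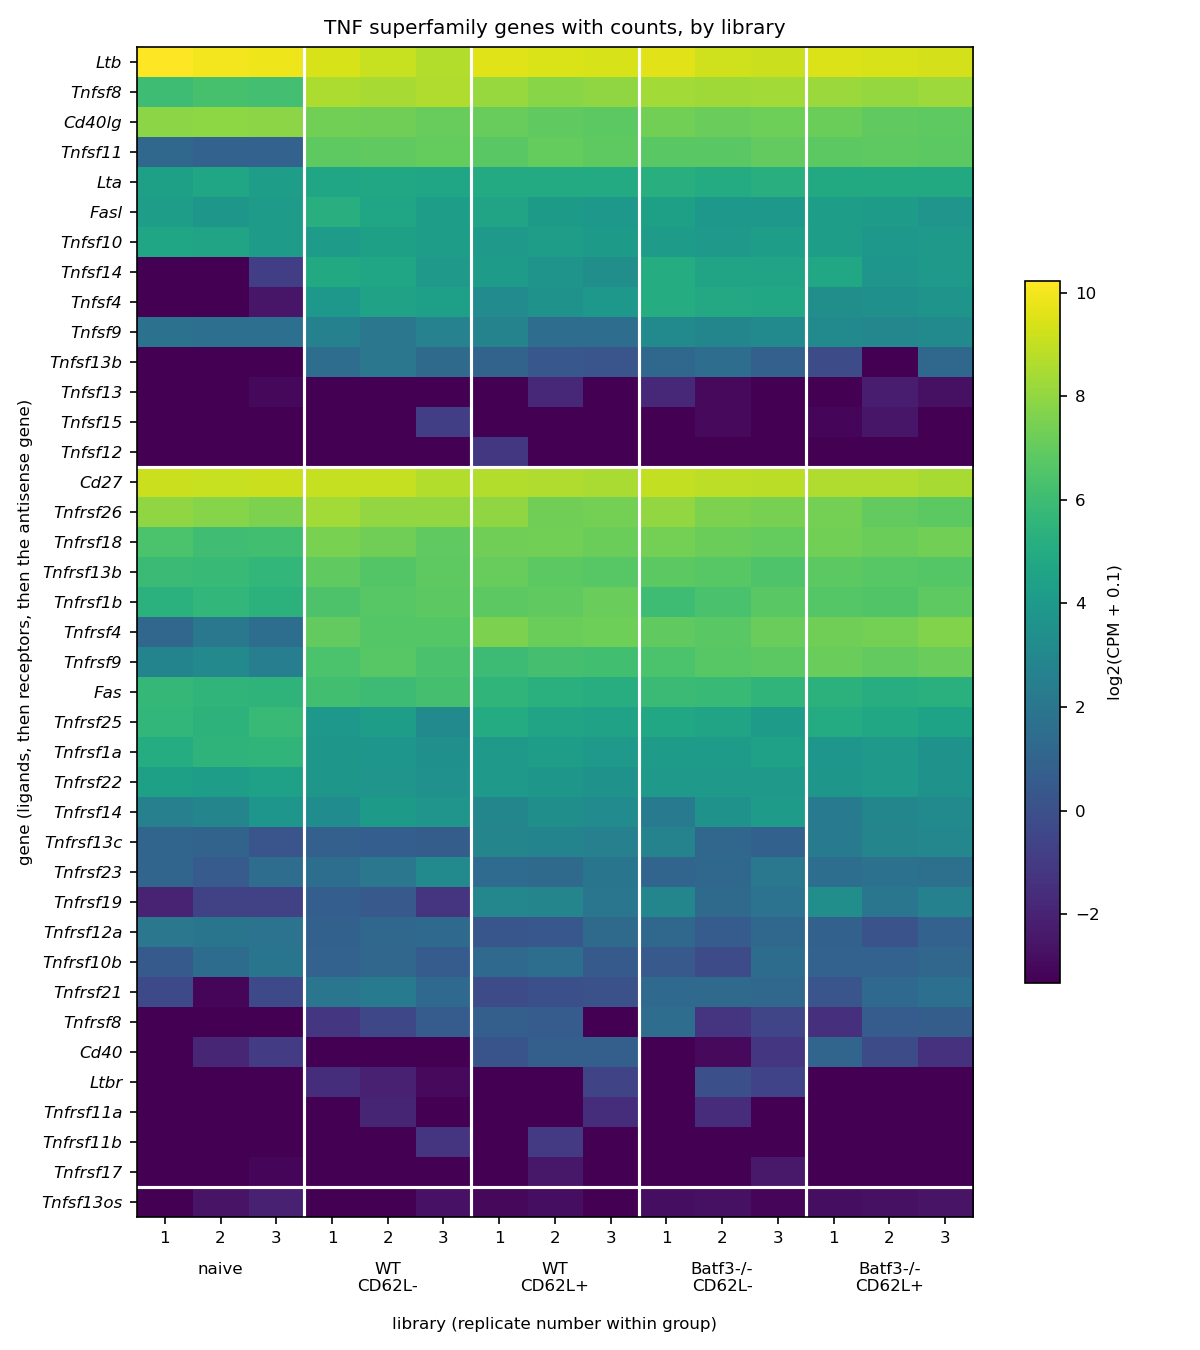
Level of each TNF superfamily gene with at least 1 count, as log2(CPM + 0.1), in the 15 libraries; rows are ligands, then receptors, then the antisense gene, each block sorted by its mean, and columns are replicates grouped by cell population. Ltb and Cd27 are high in all libraries, and Tnfsf11, Tnfsf4, Tnfsf14 and Tnfrsf4 pass from low in the 3 naive libraries to high in the 12 primed ones.

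Promoter sequence is shown for 5 genes, 4 of those that rose in all 4 primed groups and Ltb, which fell in all 4, because these are among the genes whose rise or fall is described next. The sequences are from RefSeq on GRCm38.p6 and cover the bases before the start site, shortened where an annotated exon begins. RefSeq windows of 250 bases before to 50 after the start were found for 30 of the 41 genes (34 windows) and searched on both strands for an NF-κB motif and an AP-1 motif. The NF-κB motif was GGGA, any 2 bases and TTCC, and the AP-1 motif was TGANTCA, its own reverse complement. No window held both, and capitals mark the matches. The AP-1 motif was found in 7 of the 34 windows, those of Tnfrsf8, Tnfrsf9, Tnfsf14, Tnfsf13, Fas and Tnfsf13b, the last with a pair of windows, against 7.81% of all 32851 mouse windows. The pair of Tnfsf13b windows overlaps and holds the same site, which is thus counted in both. Counted by gene, 6 of the 30 had a match. The NF-κB motif was found in 1 window, that of Ltb, against 1.47% of all windows. A match is a description of the letters and not evidence of binding.
Tnfsf14, chr17:57194190-57194431, minus strand, 1 AP-1 motif: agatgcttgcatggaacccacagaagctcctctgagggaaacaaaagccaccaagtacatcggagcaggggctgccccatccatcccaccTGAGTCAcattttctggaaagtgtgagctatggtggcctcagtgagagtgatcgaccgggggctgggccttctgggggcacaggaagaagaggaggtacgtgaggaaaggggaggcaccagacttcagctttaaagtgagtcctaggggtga
Tnfrsf8, chr4:145315165-145315414, minus strand, 1 AP-1 motif: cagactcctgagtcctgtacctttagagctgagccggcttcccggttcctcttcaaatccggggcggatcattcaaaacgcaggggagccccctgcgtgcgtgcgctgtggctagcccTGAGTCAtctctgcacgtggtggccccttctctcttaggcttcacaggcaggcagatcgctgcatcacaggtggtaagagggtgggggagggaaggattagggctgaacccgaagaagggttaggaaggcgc
Tnfsf11, chr14:78308044-78308293, minus strand, neither motif: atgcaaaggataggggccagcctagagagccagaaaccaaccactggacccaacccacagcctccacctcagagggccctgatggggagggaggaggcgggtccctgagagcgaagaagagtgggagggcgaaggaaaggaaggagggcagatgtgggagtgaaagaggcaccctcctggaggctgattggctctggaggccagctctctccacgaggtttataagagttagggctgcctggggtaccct
Tnfrsf4, chr4:156013445-156013694, plus strand, neither motif: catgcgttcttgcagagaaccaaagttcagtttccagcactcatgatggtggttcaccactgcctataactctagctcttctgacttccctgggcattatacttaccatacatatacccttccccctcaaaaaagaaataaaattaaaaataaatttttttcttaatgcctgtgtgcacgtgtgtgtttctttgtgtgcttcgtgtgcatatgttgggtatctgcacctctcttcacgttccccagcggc
Ltb, chr17:35194257-35194438, plus strand, 1 NF-κB motif on the opposite strand: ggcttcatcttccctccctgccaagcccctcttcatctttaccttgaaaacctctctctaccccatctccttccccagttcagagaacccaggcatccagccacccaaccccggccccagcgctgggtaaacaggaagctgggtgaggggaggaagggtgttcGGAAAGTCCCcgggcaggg

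The first question is how the family differs between naive and primed cells. Most tested genes of the family differed between naive and primed cells. The 5 ligands Tnfsf4, Tnfsf8, Tnfsf11, Tnfsf13b and Tnfsf14 were called higher than naive cells in all 4 primed groups. So were the 6 receptors Tnfrsf1b, Tnfrsf4, Tnfrsf8, Tnfrsf9, Tnfrsf13b and Tnfrsf18. The ligands Cd40lg and Ltb and the receptors Tnfrsf1a and Tnfrsf25 were called lower in all 4. The share of all genes called in all 4 groups was not counted, so these lists only name the genes. Tnfsf4, Tnfsf14, Tnfsf13b and Tnfrsf8 did not reach 10 counts in all naive libraries, and their calls are descriptions. In WT CD62L- cells 20 of the 33 tested genes were called against naive cells, 15 higher and 5 lower, where 30.1% of all tested genes were called (16.9% higher, 13.2% lower). In WT CD62L+ cells 21 were called, 14 higher and 7 lower, with 27.2% of all genes (15.8% higher, 11.4% lower). In Batf3-/- CD62L- cells 19 were called, 15 higher and 4 lower, with 29.3% of all genes (16.5% higher, 12.8% lower). In Batf3-/- CD62L+ cells 25 were called, 16 higher and 9 lower, with 30.2% of all genes (16.9% higher, 13.3% lower). The median log2 fold change of the tested members was 0.86, 0.88, 0.89 and 0.60 in these 4 comparisons, and that of all genes lay between -0.08 and 0.00. All 4 comparisons use the same 3 naive libraries, and a gene that reached the count minimum only in primed cells had to differ, so these counts are read as descriptions.

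**Figure D2:**
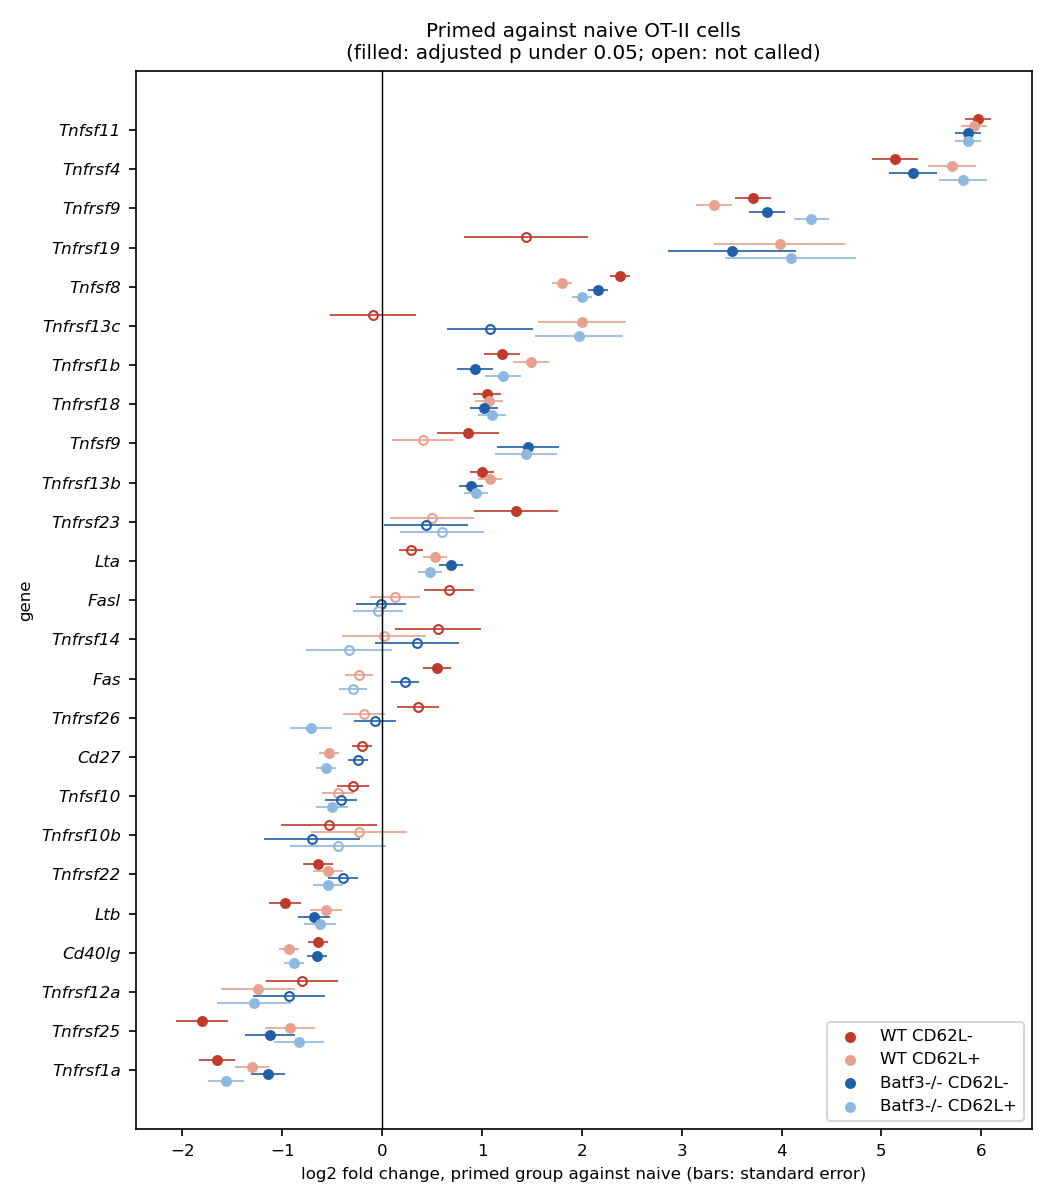
Log2 fold change against naive cells (x axis, bars are standard errors) of the 25 genes with at least 10 counts in every library, 1 point per primed group, filled where the adjusted p is under 0.05. Tnfsf11 and Tnfrsf4 lie farthest to the right, at 5.14 to 5.97 in every primed group, and Tnfrsf1a lies at -1.65 to -1.14.

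Among the ligands, Tnfsf4 (OX40 ligand, chr1:161395409-161418410, mm10) went from a level near 0 to a clear one. Its CPM was 0, 0 and 0.0738 in the naive libraries, 15.1, 22 and 20.2 in WT CD62L-, 9.01, 11.8 and 14.8 in WT CD62L+, 32.8, 28.6 and 26.8 in Batf3-/- CD62L- and 10.1, 11 and 12.8 in Batf3-/- CD62L+ libraries. Every primed library lay above every naive one, and the Batf3-/- CD62L- libraries were the highest. The naive group held 6 counts in all, so the fold is imprecise. Because Tnfsf4 reached the count minimum only in primed cells, the adjusted p-values that follow are read as descriptions. Log2 fold changes were 9.62 (SE 0.56, adjusted p = 1.18e-08), 8.93 (SE 0.55, adjusted p = 2.74e-08), 10.24 (SE 0.56, adjusted p = 7.28e-09) and 8.86 (SE 0.55, adjusted p = 2.92e-08) in the order of the groups above.

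Tnfsf14 (LIGHT, the ligand of Tnfrsf14 and Ltbr, chr17:57189492-57194189) was read at 0, 0 and 0.468 CPM in naive libraries. It was at 29.4, 25.8 and 15.2 CPM in WT CD62L-, 17.8, 12.7 and 10.1 in WT CD62L+, 33.9, 24.3 and 24.3 in Batf3-/- CD62L-, and 27, 14 and 15.5 in Batf3-/- CD62L+ libraries. No primed library overlapped the naive range, and the primed groups overlapped one another in part. The rises were 157-fold, 90.7-fold, 184-fold and 126-fold (log2 SE 0.85 to 0.88, adjusted p 1.51e-05 to 4.8e-05). Only 1 naive library of Tnfsf14 reached 10 counts. The gene thus entered the test through primed cells, and these adjusted p-values are read as descriptions. All 38 naive counts of Tnfsf14 came from naive replicate 3, and without that library the naive group was at 0 and the fold has no finite estimate, so these folds rest on 1 library. The 4 calls held without it (adjusted p 1.92e-07 to 4.2e-07). With the naive group then at 0 they could hardly fail, so this is no check of the rise. Its promoter, printed above, holds 1 AP-1 motif.

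Tnfsf13b (BAFF, a B cell survival factor that binds Tnfrsf13b and Tnfrsf13c, chr8:10006467-10039072) had 0 counts in the 3 naive libraries. It reached 2.79, 4.1 and 2.5 CPM in WT CD62L-, 1.91, 1.18 and 1.08 in WT CD62L+, 2.22, 2.81 and 1.68 in Batf3-/- CD62L-, and 0.751, 0 and 2.21 CPM in Batf3-/- CD62L+ libraries. All groups but Batf3-/- CD62L+, which held 1 library at 0, lay wholly above naive cells. With the naive libraries together taken as 3 counts, Tnfsf13b was at least 286-fold higher in WT CD62L- cells (adjusted p = 0.000718) and at least 127-fold higher in WT CD62L+ cells (adjusted p = 0.0018). It was at least 201-fold higher in Batf3-/- CD62L- (adjusted p = 0.00103) and at least 88.8-fold higher in Batf3-/- CD62L+ cells (adjusted p = 0.00232). The last of these calls was lost under limma voom (adjusted p = 0.223). As Tnfsf13b reached the count minimum only in primed cells, these adjusted p-values are read as descriptions. The bounds pool the counts of a group and do not carry its spread. BAFF is also made by myeloid cells, whose markers summed to 18.1 to 24 CPM in naive and 20.3 to 32.7 CPM in primed libraries, and their part in the result was not tested.

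Tnfsf11 (RANKL, the ligand of RANK, chr14:78277445-78308043) rose to almost the same level in every primed group. It averaged 1.93 ± 0.221 CPM in naive cells, against 121 ± 6.93 in WT CD62L-, 118 ± 11.7 in WT CD62L+, 113 ± 9.18 in Batf3-/- CD62L- and 114 ± 1.94 in Batf3-/- CD62L+ cells. The rises were 62.5-, 61.0-, 58.5- and 58.6-fold (log2 SE 0.13, adjusted p 5.19e-13 to 9.13e-13), and between primed groups the log2 differences ranged from -0.10 to 0.04 (SE 0.10), none called.

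Tnfsf8 (CD30 ligand, chr4:63831308-63861347) was already present in naive cells and rose further. It averaged 71.8 ± 6.89 CPM in naive cells and 374 ± 23.1, 250 ± 26.1, 321 ± 8.49 and 286 ± 17.9 in the WT CD62L-, WT CD62L+, Batf3-/- CD62L- and Batf3-/- CD62L+ groups, rises of 5.21-, 3.49-, 4.47- and 3.99-fold (adjusted p 3.31e-10 to 6.89e-09). Tnfsf9 (the ligand of Tnfrsf9) was called higher in 3 groups, with 3.03 ± 0.143 CPM in naive cells, 5.51 ± 1.33 in WT CD62L-, 4.01 ± 2.17 in WT CD62L+, 8.35 ± 0.779 in Batf3-/- CD62L- and 8.24 ± 0.518 in Batf3-/- CD62L+ cells. The 2.76-fold and 2.72-fold rises in Batf3-/- recipients (adjusted p = 0.0026 and 0.00278) held under all alternatives, and the 1.82-fold rise in WT CD62L- cells (adjusted p = 0.0487) was lost in 8 of 14, among them each naive library left out and WT CD62L- replicate 1 or 3 left out (adjusted p 0.0917 to 0.129). Lta (lymphotoxin alpha) rose 1.44-fold in WT CD62L+ (adjusted p = 0.00454), 1.62-fold in Batf3-/- CD62L- (adjusted p = 0.000565) and 1.4-fold in Batf3-/- CD62L+ cells (adjusted p = 0.00738), and in WT CD62L- cells it was at 26.2 ± 1.46 against 21.4 ± 3.33 CPM (adjusted p = 0.0821).

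The ligands that fell, Ltb and Cd40lg, had the highest levels per kilobase among ligands in naive cells. Ltb (lymphotoxin beta, the partner of Lta in the membrane heterotrimer, chr17:35194439-35196320) was read at 1197, 1028 and 942 CPM in naive libraries, 668, 552 and 401 in WT CD62L-, 763, 699 and 680 in WT CD62L+, 792, 616 and 563 in Batf3-/- CD62L-, and 737, 669 and 648 in Batf3-/- CD62L+ libraries. All primed libraries lay below all naive ones, and the primed groups overlapped. The falls were 1.95-fold (log2 SE 0.16, adjusted p = 0.000442), 1.48-fold (adjusted p = 0.0194), 1.61-fold (adjusted p = 0.00576) and 1.54-fold (adjusted p = 0.00995). The call in WT CD62L+ cells was lost without naive replicate 1 (adjusted p = 0.0832) and without WT CD62L+ replicate 2 or 3 (adjusted p = 0.0612 and 0.0710).

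Cd40lg (CD40 ligand, chrX:57212143-57224042) was read at 230, 241 and 231 CPM in naive libraries. It was at 160, 154 and 135 CPM in WT CD62L-, 137, 121 and 112 in WT CD62L+, 160, 138 and 148 in Batf3-/- CD62L-, and 143, 122 and 117 in Batf3-/- CD62L+ libraries. The naive libraries were again above all primed ones, by 1.56-fold (adjusted p = 0.000279), 1.9-fold (adjusted p = 1.1e-05), 1.57-fold (adjusted p = 0.000259) and 1.83-fold (adjusted p = 1.71e-05). Of the remaining tested ligands, Tnfsf10 (TRAIL) fell 1.41-fold in Batf3-/- CD62L+ cells (adjusted p = 0.0337). In WT CD62L+ and Batf3-/- CD62L- cells its adjusted p was 0.0615 and 0.0762, and it was called there under DESeq2 and limma voom. The Tnfsf10 call was lost without naive replicate 1 or 2 or without Batf3-/- CD62L+ replicate 2 or 3 (adjusted p 0.105 to 0.147). Fasl (Fas ligand) was not called by edgeR, at 16.8 ± 2.12 CPM in naive cells and 26.8 ± 8.63, 18.5 ± 5.08, 16.7 ± 3.51 and 16.4 ± 3.04 in the primed groups. In WT CD62L- cells its adjusted p was 0.0587, and it was called there under DESeq2, limma voom, the replicate block and no filter, and without WT CD62L- replicate 3 (lowest adjusted p 0.0102).

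**Figure D3:**
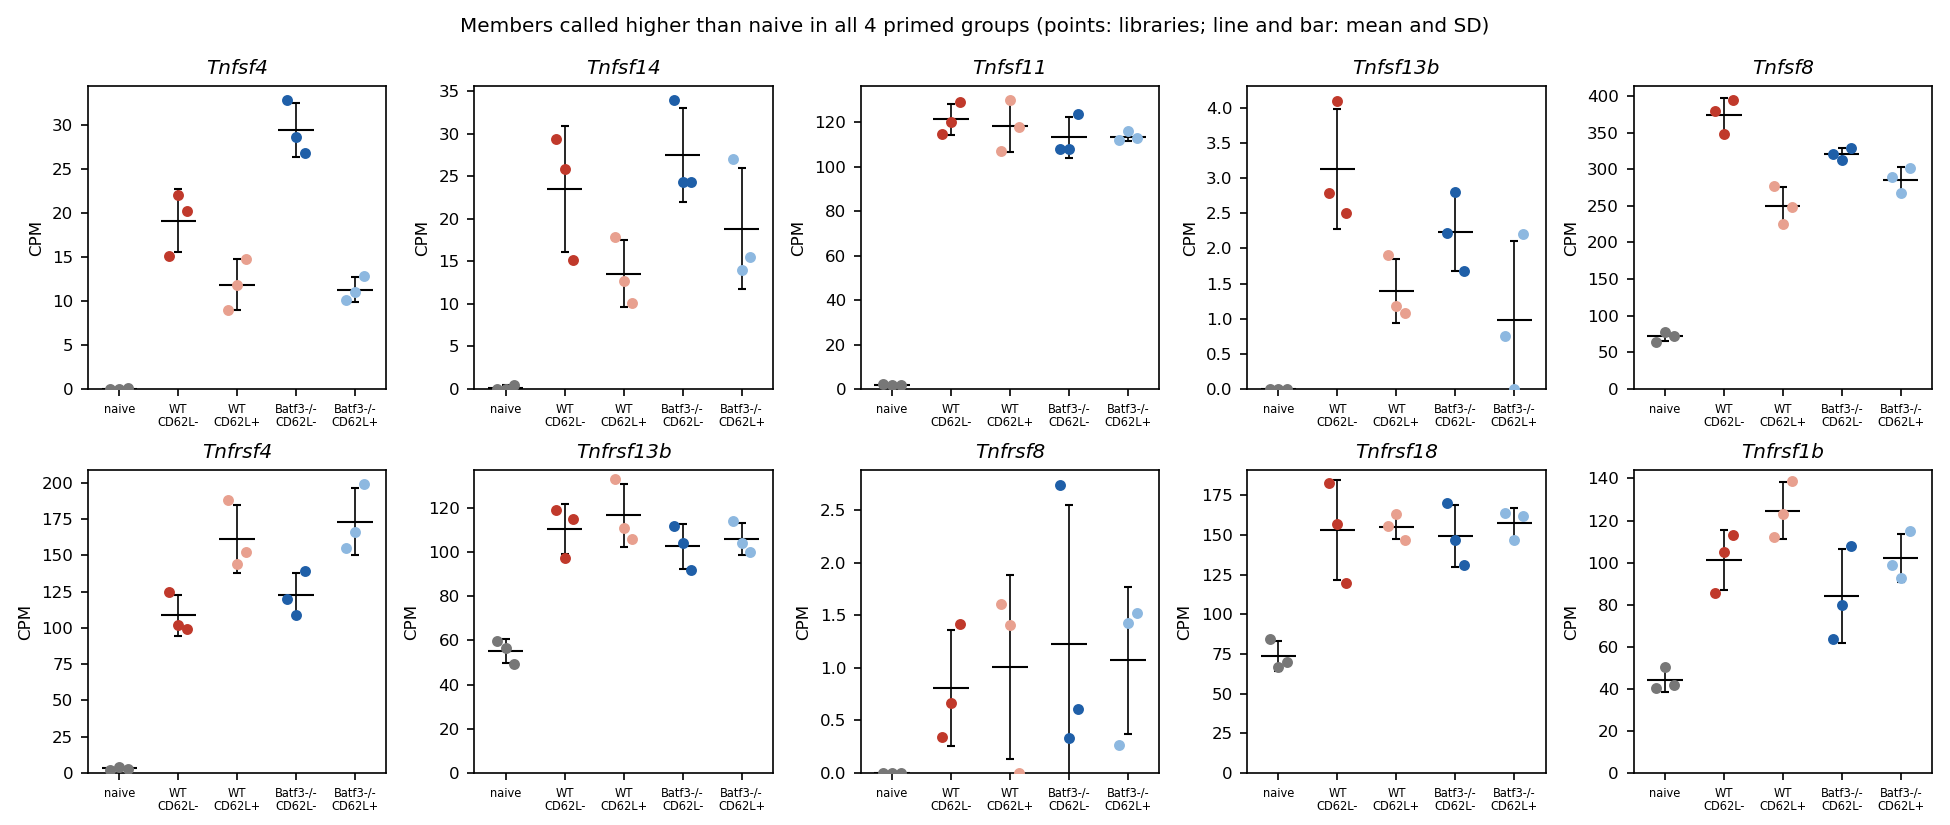
CPM of 10 of the 11 genes that were called higher than naive in all 4 primed groups (points are libraries, horizontal lines group means, bars SD, n = 3 per group; y axes start at 0). Naive libraries lie at or near 0 for Tnfsf4, Tnfsf14, Tnfsf11, Tnfsf13b, Tnfrsf4 and Tnfrsf8, and single primed libraries of Tnfsf13b and Tnfrsf8 are also at 0.

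Among the receptors, Tnfrsf4 (OX40, a costimulator bound by Tnfsf4, chr4:156013843-156016612) rose from 3.09 ± 1.06 CPM in naive cells to 109 ± 14, 161 ± 23.1, 123 ± 15.1 and 173 ± 22.6 CPM in WT CD62L-, WT CD62L+, Batf3-/- CD62L- and Batf3-/- CD62L+ cells. These are rises of 35.3-, 52.5-, 39.9- and 56.3-fold (log2 SE 0.23 to 0.24, adjusted p 4.01e-10 to 9.67e-10). Its neighbour Tnfrsf18 (GITR), 9.55 kb away on chromosome 4, rose by 2.08-, 2.11-, 2.03- and 2.14-fold (adjusted p 4.59e-05 to 8.84e-05) from 73.7 ± 9.38 CPM. For Tnfrsf18, 27.2% of the exon length is shared with Gm16008 on the opposite strand, and reads there cannot be assigned without strand.

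Tnfrsf9 (CD137, a costimulator) rose by 13.0-, 9.96-, 14.5- and 19.7-fold from 6.88 ± 1.43 CPM (adjusted p 5.22e-10 to 6.01e-09). Tnfrsf1b (TNF receptor 2) rose by 2.29-, 2.81-, 1.9- and 2.31-fold from 44.2 ± 5.52 CPM (adjusted p 1.98e-05 to 0.00107). Tnfrsf13b (TACI, a BAFF receptor known mostly from B cells) rose by 2.0-, 2.11-, 1.85- and 1.92-fold from 55.3 ± 5.34 CPM (adjusted p 1.01e-05 to 5.74e-05). The level of Tnfrsf13b in primed cells was 111 ± 11.4, 117 ± 14.3, 102 ± 10.2 and 106 ± 7.19 CPM, while the summed B cell markers were higher in both CD62L+ groups than in both CD62L- groups. The part of B cell RNA in the Tnfrsf13b level was not tested.

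Tnfrsf8 (CD30, the receptor of Tnfsf8, chr4:145267137-145315164) had 0 counts in the naive libraries. It was read at 0.341, 0.664 and 1.42 CPM in WT CD62L-, 1.61, 1.41 and 0 in WT CD62L+, 2.74, 0.332 and 0.61 in Batf3-/- CD62L-, and 0.268, 1.43 and 1.52 CPM in Batf3-/- CD62L+ libraries. The libraries of each primed group were widely spread, and 1 WT CD62L+ library was at 0 like the naive ones. With the naive libraries again taken as 3 counts together, it was at least 62-fold, 102-fold, 120-fold and 96.9-fold higher (adjusted p = 0.00732, 0.00656, 0.00512 and 0.00561). Under limma voom 3 of these 4 calls were lost (adjusted p = 0.0539, 0.213 and 0.0569 in WT CD62L-, WT CD62L+ and Batf3-/- CD62L- cells). Since Tnfrsf8 reached the count minimum only in primed cells, its calls against naive cells are descriptions and no support for a rise. The bounds pool the counts of a group and do not carry its spread. In Batf3-/- CD62L- cells 256 of the 324 counts came from replicate 1.

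Tnfrsf1a (TNF receptor 1, which carries a death domain, chr6:125349362-125362484) fell in every primed group. It was read at 32.8, 45.2 and 45.8 CPM in naive libraries, 14.5, 13.7 and 11.2 in WT CD62L-, 16.2, 18.9 and 15.3 in WT CD62L+, 17.8, 17.3 and 21.2 in Batf3-/- CD62L-, and 14, 16.1 and 12 in Batf3-/- CD62L+ libraries. The lowest naive library was above the highest primed one, with falls of 3.13-fold (adjusted p = 6.13e-06), 2.46-fold (adjusted p = 6.02e-05), 2.2-fold (adjusted p = 0.000177) and 2.95-fold (adjusted p = 1e-05). Of the receptors of TNF and Lta, Tnfrsf1b rose in all 4 groups and Tnfrsf1a fell in all 4.

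Tnfrsf25 (DR3, a death domain receptor known to bind Tnfsf15, chr4:152115934-152120119) was read at 49.7, 42.7 and 56.7 CPM in naive libraries, 15.1, 19.2 and 8.5 in WT CD62L-, 31.9, 24.1 and 22.5 in WT CD62L+, 26.7, 23.9 and 18.1 in Batf3-/- CD62L-, and 32.3, 28 and 23.5 in Batf3-/- CD62L+ libraries. All primed libraries were lower than all naive ones, by 3.47-fold (adjusted p = 0.000107), 1.9-fold (adjusted p = 0.0142), 2.17-fold (adjusted p = 0.00405) and 1.78-fold (adjusted p = 0.0226). The call in WT CD62L+ cells was lost without naive replicate 3 or without WT CD62L+ replicate 2 or 3 (adjusted p 0.0564 to 0.0647). The call in Batf3-/- CD62L+ cells was lost without naive replicate 1 or 3 or without Batf3-/- CD62L+ replicate 2 or 3 (adjusted p 0.0511 to 0.0973).

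The other receptors were called in 1 to 3 of the 4 groups, and the differences between groups in these changes are not tested by those calls. Cd27 (a costimulator bound by Cd70) fell in the CD62L+ groups, by 1.44-fold in WT (adjusted p = 0.000954) and 1.47-fold in Batf3-/- recipients (adjusted p = 0.000566). In the CD62L- groups its log2 change was -0.20 and -0.24 (adjusted p = 0.147 and 0.0867), called with the replicate block (adjusted p = 0.0411 and 0.0204). Tnfrsf22 (a mouse decoy receptor of TRAIL) fell in 3 groups, by 1.55-, 1.46- and 1.45-fold in WT CD62L-, WT CD62L+ and Batf3-/- CD62L+ cells (adjusted p = 0.00538, 0.0155 and 0.0144). Every primed library, at most 16.1 CPM, lay below every naive library of Tnfrsf22, at least 19.5 CPM, and in Batf3-/- CD62L- cells its adjusted p was 0.0668. The Tnfrsf22 calls in the CD62L+ groups were lost without naive replicate 3 or without replicate 3 of the group itself (adjusted p 0.0517 to 0.0883). Tnfrsf12a (the receptor of Tnfsf12) fell 2.36- and 2.43-fold in the CD62L+ groups of WT and Batf3-/- recipients (adjusted p = 0.0217 and 0.0161). All primed libraries of Tnfrsf12a, at most 2.46 CPM, were also below all naive ones, at least 3.46 CPM, with adjusted p of 0.114 and 0.0715 in WT CD62L- and Batf3-/- CD62L- cells. Its call in WT was lost without naive replicate 1 or 2 or WT CD62L+ replicate 1 or 2 (adjusted p 0.0512 to 0.0959), and its call in Batf3-/- without Batf3-/- CD62L+ replicate 2 (adjusted p = 0.0866). Fas, the death receptor bound by Fasl, rose 1.46-fold in WT CD62L- cells (adjusted p = 0.007). It was not called by edgeR in the other groups (adjusted p 0.133 to 0.239), and limma voom called it in Batf3-/- CD62L+ cells (adjusted p = 0.0449). Tnfrsf26, which lies beside Tnfrsf22 and Tnfrsf23 on chromosome 7, fell 1.63-fold in Batf3-/- CD62L+ cells (adjusted p = 0.0187), a call lost without naive replicate 1 or Batf3-/- CD62L+ replicate 2 or 3 (adjusted p 0.0733 to 0.0864). In WT CD62L- cells Tnfrsf26 was the other way, at 280 ± 36.3 against 219 ± 31.3 CPM (log2 0.36, adjusted p = 0.218, with the replicate block 0.00655). Tnfrsf26 and Tnfrsf23 share 3.33% and 4.14% of their exon length with E230032D23Rik on the opposite strand, where reads cannot be assigned without strand. That gene held 4228 counts in all, against 3370 for Tnfrsf23.

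Tnfrsf19, a receptor best known from epithelial and nervous tissue, rose from 0.395 ± 0.21 CPM to 6.19 ± 1.96, 4.44 ± 2.61 and 6.69 ± 3.17 CPM in WT CD62L+, Batf3-/- CD62L- and Batf3-/- CD62L+ cells (adjusted p = 0.000386, 0.000873 and 0.000283), and stood at 1.05 ± 0.63 CPM in WT CD62L- cells (adjusted p = 0.096). Tnfrsf13c (BAFF receptor) rose 3.99-fold in WT CD62L+ (adjusted p = 0.00354) and 3.92-fold in Batf3-/- CD62L+ cells (adjusted p = 0.00342). The summed B cell markers were also above naive in these groups, at 134 ± 15.4 and 149 ± 21.3 against 46.6 ± 1.83 CPM, and their part in the Tnfrsf13c rise was not tested. Tnfrsf21 (a death domain receptor) rose from 0.47 ± 0.396 CPM to 3.68 ± 1.2 in WT CD62L- (adjusted p = 0.0106), 2.38 ± 0.118 in Batf3-/- CD62L- (adjusted p = 0.0339) and 2.15 ± 0.958 CPM in Batf3-/- CD62L+ cells (adjusted p = 0.0438). Only 2 naive libraries of Tnfrsf21 reached 10 counts, so its adjusted p-values against naive cells are read as descriptions. The call in WT CD62L- cells held under every alternative. That in Batf3-/- CD62L- cells was lost without naive replicate 3 or without any 1 library of the group (adjusted p 0.0514 to 0.0707), and that in Batf3-/- CD62L+ cells without naive replicate 1 or 3 or without replicate 2 or 3 of the group (adjusted p 0.0539 to 0.117). Tnfrsf23 rose 2.53-fold in WT CD62L- cells (adjusted p = 0.0274), with WT CD62L- replicate 3 at 8.83 CPM against 2.88 and 4.05 in the others. That call was lost without this library (adjusted p = 0.17) and without naive replicate 1 or 2 (adjusted p = 0.0707 and 0.107). Tnfrsf14 (the receptor of Tnfsf14) and Tnfrsf10b (a TRAIL death receptor) were not called, at 7.05 to 13 and 1.6 to 2.6 CPM as group means.

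Tnf, outside the rule, rose 4.12-, 2.69-, 6.37- and 3.89-fold in the 4 groups from 6.16 ± 0.293 CPM (adjusted p = 1.25e-05, 0.00033, 1.13e-06 and 1.82e-05). Relt, a related receptor, fell 1.94-, 1.64-, 1.85- and 1.74-fold (adjusted p = 0.00234, 0.0161, 0.00406 and 0.00781), and Ngfr, Eda, Edar and Eda2r had 5 counts at most in any group and were not tested.

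Ligands and receptors were set side by side as CPM per kilobase of exon, which takes gene length into account. RNA was amplified, and exons overlap other genes over 27.2% of Tnfrsf18, 5.54% of Cd27 and 3.33% of Tnfrsf26. Levels of different genes are thus compared only roughly. In naive cells the ranking was led by Ltb at 696 ± 85.6, Cd27 at 240 ± 5.74 and Cd40lg at 187 ± 4.62 CPM per kilobase, followed by Tnfrsf26 at 68.1 ± 9.73 and Tnfrsf18 at 48.4 ± 6.16. In WT CD62L- cells Ltb at 356 ± 88.1, Cd27 at 210 ± 28.5 and Cd40lg at 120 ± 10.4 still led, and Tnfrsf18 (100 ± 20.7), Tnfsf8 (98.1 ± 6.07), Tnfrsf26 (87.1 ± 11.3) and Tnfrsf4 (79.5 ± 10.3) came next, with spreads that overlapped. In the CD62L+ groups Tnfrsf4 followed Ltb and Cd27, at 118 ± 16.9 in WT and 127 ± 16.5 in Batf3-/- recipients.

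In several pairs 1 partner stood high and the other near 0 in the same cells. Tnfsf8 and Tnfsf11 stood at 98.1 and 54.2 CPM per kilobase in WT CD62L- cells, where their receptors Tnfrsf8 and Tnfrsf11a stood at 0.233 and 0.00924. The reverse held for Cd27, Tnfrsf18 and Tnfrsf25, whose ligands Cd70 and Tnfsf18 were at 0 and Tnfsf15 at 0.047 CPM per kilobase. Tnfsf4 with Tnfrsf4 (10.4 and 79.5) and Tnfsf14 with Tnfrsf14 (12.6 and 11.3) were both present in WT CD62L- cells, and in naive cells the ligands of these pairs were at 0.0134 and 0.0838.

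**Figure D4:**
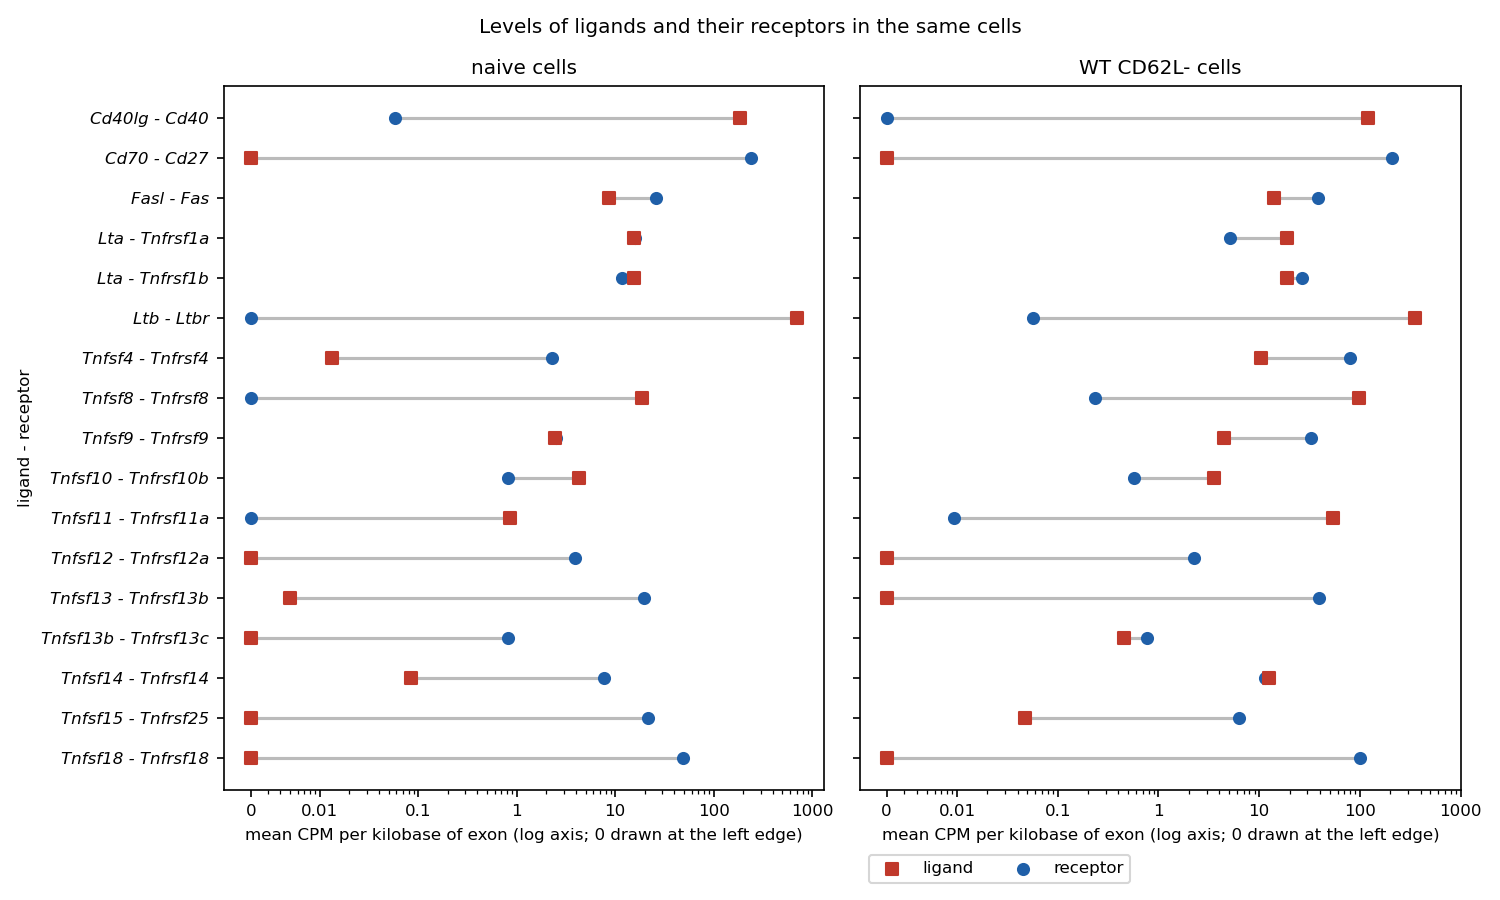
Mean CPM per kilobase of exon (log x axis, 0 drawn at the left edge) of 17 ligand and receptor pairs in naive cells and in WT CD62L- cells; squares are ligands, circles receptors, and a grey line joins the pair. The Tnfsf4, Tnfsf14 and Tnfsf11 squares move right from naive to WT CD62L- cells, while the squares of Cd70 and Tnfsf18 stay at 0 in both.

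The second question is how the CD62L- and CD62L+ primed cells differ. Averaged over both recipients, CD62L- cells had more Fas, Tnfsf8, Tnfsf4, Cd27 and Tnfrsf26 and less Tnfrsf13c and Cd40. These were the 7 genes called, 5 higher and 2 lower, where 2.96% of all genes were called (1.53% higher, 1.43% lower). Within WT recipients 3 genes were called, Fas and Tnfsf8 higher and Tnfrsf13c lower, with 1.22% of all genes (0.672% higher, 0.552% lower). Within Batf3-/- recipients 0 were called by edgeR, with 0.501% of all genes (0.286% higher, 0.216% lower) and 9 members at an unadjusted p under 0.05. The share of all genes at that unadjusted threshold was not counted, so the 9 are not read as a difference of the family. DESeq2 called 8, 2 and 11 members in WT, in Batf3-/- and on average, where it called 4.13%, 2.17% and 6.31% of all genes. Limma voom called 4, 4 and 12 members, with 2.39%, 1.68% and 5.51% of all genes. Libraries with the same replicate number deviated together among the primed groups, and with the replicate number as a block 7, 2 and 12 members were called in WT, in Batf3-/- and on average. The block raised the calls over all genes as well, to 2.65%, 0.988% and 4.94%. The share of mitochondrial counts also separated the subsets, at 1.38 to 2.37% in WT CD62L- against 0.813 to 1.16% in WT CD62L+ libraries, and at 1.65 to 2.2% in Batf3-/- CD62L- against 0.764 to 1.58% in Batf3-/- CD62L+ libraries. Its part in the subset differences was not tested. The third CD62L- library of each recipient had the highest such share, and without both 3, 0 and 4 members were called. Calls over all genes moved with the setting as well, from 388 to 1259 on average over recipients. The lower count is therefore not read as particular to the family.

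Fas (chr19:34290659-34327770) was read at 69.9, 61.8 and 74.8 CPM in WT CD62L- and 47.2, 38.1 and 34.8 in WT CD62L+ libraries, and at 59.9, 57.9 and 47.3 in Batf3-/- CD62L- and 41.7, 34.9 and 39.2 in Batf3-/- CD62L+ libraries. In both recipients every CD62L- library was above every CD62L+ library. Fas was 1.72-fold higher in WT (log2 0.78, SE 0.14, adjusted p = 0.00936), 1.43-fold higher in Batf3-/- (adjusted p = 0.169) and 1.57-fold higher on average (adjusted p = 0.0018). The call in WT was lost without WT CD62L+ replicate 2 or 3 (adjusted p = 0.0579 and 0.0647) and in a fit of the compared groups alone (adjusted p = 0.0622).

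Tnfsf8 was read at 379, 348 and 394 CPM in WT CD62L-, 277, 225 and 248 in WT CD62L+, 321, 312 and 329 in Batf3-/- CD62L-, and 289, 267 and 302 in Batf3-/- CD62L+ libraries. The subsets did not overlap in either recipient, and the gap was wider in WT. The fold was 1.49 in WT (log2 0.58, SE 0.10, adjusted p = 0.00649), 1.12 in Batf3-/- (adjusted p = 0.743) and 1.29 on average (adjusted p = 0.00655), and the difference between recipients was not called (interaction log2 -0.41, SE 0.13, adjusted p = 1.0). In a fit of the compared groups alone the WT call was lost (adjusted p = 0.0563).

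Tnfsf4, whose values are given above, was higher in CD62L- cells by 1.61-fold in WT (log2 0.68, SE 0.33, adjusted p = 0.42), 2.61-fold in Batf3-/- (log2 1.38, SE 0.33, adjusted p = 0.113) and 2.05-fold on average (log2 1.03, SE 0.23, adjusted p = 0.0278). The subsets did not overlap in either recipient, the lowest CD62L- values being 15.1 and 26.8 CPM and the highest CD62L+ values 14.8 and 12.8. With the replicate block the difference in Batf3-/- recipients was called (adjusted p = 0.0493), and leaving out single libraries ended the average call in 8 of 12 cases (log2 0.95 to 1.04 there, adjusted p 0.0590 to 0.0746). Tnf, which lies outside the rule, was 1.58-fold higher in CD62L- cells on average (adjusted p = 0.0382).

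Cd27 (chr6:125232622-125237010) was read at 532, 520 and 412 CPM in WT CD62L-, 406, 395 and 362 in WT CD62L+, 506, 467 and 452 in Batf3-/- CD62L-, and 396, 396 and 349 in Batf3-/- CD62L+ libraries. The subsets did not overlap, though WT CD62L- replicate 3 was close to the CD62L+ range. The log2 difference was 0.33 in WT (SE 0.10, adjusted p = 0.143, with the block 0.0295), 0.32 in Batf3-/- (SE 0.10, adjusted p = 0.273) and 0.33 on average (SE 0.07, adjusted p = 0.0179, lost without WT CD62L- replicate 2 at 0.0541 or WT CD62L+ replicate 3 at 0.0617). A microRNA gene, Mir8113, lies within 5.54% of its exon length.

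Tnfrsf26 (chr7:143607659-143628722) was read at 322, 261 and 258 CPM in WT CD62L-, 254, 155 and 170 in WT CD62L+, 261, 191 and 174 in Batf3-/- CD62L-, and 166, 124 and 112 in Batf3-/- CD62L+ libraries. The subsets did not overlap in either recipient, and in each group replicate 1 was the highest. The log2 difference was 0.54 in WT (SE 0.21, adjusted p = 0.299), 0.64 in Batf3-/- (SE 0.21, adjusted p = 0.325) and 0.59 on average (SE 0.15, adjusted p = 0.0459). With the block all 3 were called (adjusted p = 0.00402, 0.00428 and 0.000124), and without it the average call was lost without 9 of 12 single libraries (adjusted p 0.0691 to 0.124).

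Tnfrsf13c (chr15:82221744-82224339) was read at 1.66, 1.53 and 1.5 CPM in WT CD62L-, 7.2, 6.83 and 5.86 in WT CD62L+, 6.68, 2.08 and 1.74 in Batf3-/- CD62L-, and 4.96, 7.05 and 7.55 in Batf3-/- CD62L+ libraries. The WT groups were well apart, and Batf3-/- CD62L- replicate 1 reached the CD62L+ range. Tnfrsf13c was 4.24-fold lower in CD62L- cells in WT (log2 -2.08, SE 0.44, adjusted p = 0.0347), 1.86-fold lower in Batf3-/- (adjusted p = 0.627) and 2.81-fold lower on average (adjusted p = 0.0158). The WT call was lost without any 1 of its 6 libraries (log2 -2.17 to -2.01, adjusted p 0.0804 to 0.132). The average call was lost without the third CD62L- libraries of both recipients (adjusted p = 0.0558).

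Cd40 (the receptor of CD40 ligand, known from B cells and dendritic cells, chr2:165055627-165072948) was read at 0, 0.172 and 0.418 CPM in naive libraries. It had 0 counts in the 3 WT CD62L- libraries, 1.03, 1.63 and 1.6 CPM in WT CD62L+, 0, 0.0256 and 0.349 in Batf3-/- CD62L-, and 2.01, 0.747 and 0.28 CPM in Batf3-/- CD62L+ libraries. The subsets did not overlap in WT and did in Batf3-/- recipients. In WT recipients Cd40 was at least 76.5-fold lower in CD62L- cells, taking those 3 libraries together as 3 counts (adjusted p = 0.103), and the average difference was called (adjusted p = 0.0394, lost without 9 of 12 single libraries at 0.0596 to 0.0925).

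In WT recipients the B cell marker sum, Tnfrsf13c, Cd40 and Tnfrsf19 were all lower in every CD62L- than in every CD62L+ library. In Batf3-/- recipients Tnfrsf13c and Cd40 overlapped between the subsets while the B cell sums did not. There, CD62L- replicate 1 had the highest Tnfrsf13c of its group, 6.68 CPM, and the lowest B cell sum, 30 CPM. Tnfrsf13c averaged 1.56 CPM in WT CD62L- and 1.66 in naive cells, where the B cell sums averaged 16.9 and 46.6 CPM. The B cell marker sum was 14.2 to 18.5 CPM in WT CD62L- against 125 to 152 in WT CD62L+ libraries, and 30 to 43.5 in Batf3-/- CD62L- against 132 to 173 in Batf3-/- CD62L+ libraries. In WT recipients 8 of the 12 markers were called lower in CD62L- cells, and 5 of 12 were in Batf3-/- recipients. The part of B cell RNA in the differences of Tnfrsf13c, Cd40 and Tnfrsf19 was not tested. Tnfrsf19 was read at 1.53, 1.28 and 0.333 CPM in WT CD62L- and 7.54, 7.08 and 3.95 in WT CD62L+ libraries, without overlap, and the difference was called with the block (adjusted p = 0.0373) but not without it (log2 -2.54, SE 0.61, adjusted p = 0.0657). In Batf3-/- recipients Tnfrsf19 was read at 7.4, 2.48 and 3.43 CPM in CD62L- and 10.1, 3.89 and 6.06 CPM in CD62L+ libraries, which overlapped while the B cell sums did not. In Batf3-/- CD62L- cells Tnfrsf19 was above naive (4.44 ± 2.61 against 0.395 ± 0.21 CPM) with a lower B cell sum (35.6 ± 7.04 against 46.6 ± 1.83 CPM).

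The block added 4 further genes to the average comparison, Ltb (log2 -0.25, adjusted p = 0.0474), Tnfrsf25 (log2 -0.59, adjusted p = 0.0481), Tnfrsf4 (log2 -0.54, adjusted p = 0.0463) and Cd40lg (log2 0.26, adjusted p = 0.0151), beside Tnfrsf19 (log2 -1.61, adjusted p = 0.0386). Tnfrsf4 was lower in all 3 CD62L- than in all 3 CD62L+ libraries of both recipients, at 125, 102 and 99 against 188, 144 and 152 CPM in WT and 120, 109 and 139 against 155, 166 and 199 CPM in Batf3-/- recipients. Without the block its adjusted p was 0.0528. Ltb was also called with the block in WT alone (log2 -0.43, adjusted p = 0.0294). Of the 33 tested genes, 8 lay wholly above and 8 wholly below in CD62L- against CD62L+ libraries of WT recipients, where 7.93% and 9.82% of all genes did. In Batf3-/- recipients 7 lay above and 2 below, against 6.44% and 6.94% of all genes.

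**Figure D5:**
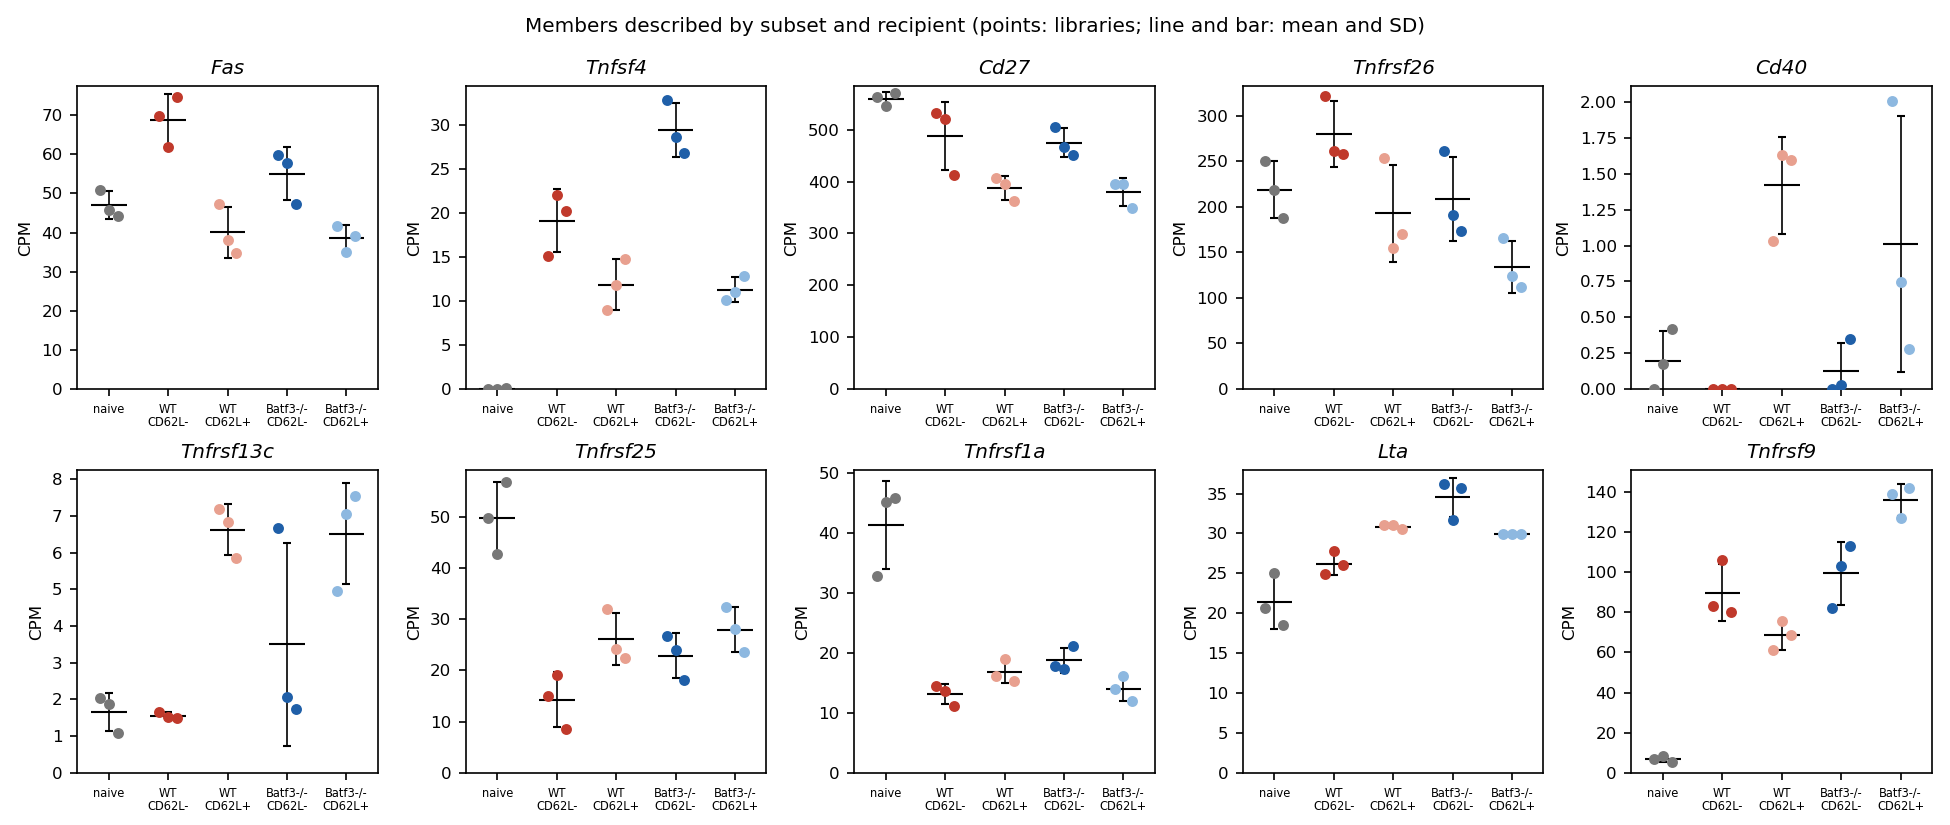
CPM of 10 genes described by subset and recipient (points are libraries, horizontal lines group means, bars SD, n = 3 per group; y axes start at 0). Fas and Cd27 are higher in CD62L- than in CD62L+ libraries of both recipients, Cd40 is at 0 in the 3 WT CD62L- libraries, and Tnfrsf9 reaches 127 to 142 CPM in Batf3-/- CD62L+ libraries against 61.3 to 75.8 in WT CD62L+.

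The third question is whether cells primed in Batf3-/- recipients differ from those primed in WT recipients. Averaged over subsets, Tnfrsf9 was the 1 gene of the family called, higher in Batf3-/- recipients, where 0.441% of all genes were called (0.271% higher, 0.17% lower). Among CD62L- cells 0 members were called by edgeR, with 0.0501% of all genes (0.0251% higher, 0.0251% lower) and 9 members at an unadjusted p under 0.05. Among CD62L+ cells 0 were called by edgeR, with 0.00501% of all genes (0% higher, 0.00501% lower) and 4 members at an unadjusted p under 0.05. For these unadjusted counts too, the share of all genes was not counted, and no family difference is read from them. DESeq2 called 2, 1 and 3 members in CD62L-, in CD62L+ and on average, with 2.16%, 0.712% and 3.11% of all genes. Limma voom called 0, 2 and 2, with 0.396%, 0.351% and 1.64% of all genes, and the replicate block gave 0, 2 and 2, with 0.371%, 0.16% and 1.01%.

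Tnfrsf9 (chr4:150914562-150946102) was read at 83.3, 106 and 80.2 CPM in WT CD62L-, 61.3, 75.8 and 68.6 in WT CD62L+, 82.3, 103 and 113 in Batf3-/- CD62L-, and 139, 127 and 142 CPM in Batf3-/- CD62L+ libraries. The recipients overlapped among CD62L- cells and did not among CD62L+ cells. In CD62L+ cells Tnfrsf9 was 1.98-fold higher in Batf3-/- recipients (log2 0.99, SE 0.16, adjusted p = 0.0743, with the block 0.0234), in CD62L- cells 1.11-fold (log2 0.15, SE 0.16, adjusted p = 0.832), and on average 1.48-fold (log2 0.57, SE 0.11, adjusted p = 0.0475, with the block 0.0187). The average call without the block was lost when any of 10 of the 12 primed libraries was left out (log2 0.52 to 0.61, adjusted p 0.0731 to 0.129). It was also lost without the third CD62L- libraries of both recipients (log2 0.48, adjusted p = 0.178).

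Tnfrsf26 was lower in Batf3-/- recipients, on average by log2 -0.48 (SE 0.15, adjusted p = 0.21, with the block 0.00401) and in CD62L+ cells by log2 -0.53 (SE 0.21, adjusted p = 0.776, with the block 0.0492 at log2 -0.52). Tnfsf9 lay at 8.49, 7.64 and 8.58 CPM in Batf3-/- CD62L+ against 6.51, 2.77 and 2.73 in WT CD62L+ libraries and at 8.64, 7.46 and 8.93 against 6.17, 3.98 and 6.39 among CD62L- libraries, without overlap in either subset. It was not called by edgeR (average log2 0.82, SE 0.22, adjusted p = 0.139). The average difference was called under DESeq2 and limma voom and without WT CD62L+ replicate 1 (lowest adjusted p 0.0109), and the difference in CD62L+ cells under limma voom (adjusted p = 0.032). The interaction of subset and recipient was called by edgeR for 0 members and 0% of all genes. At an unadjusted p under 0.05 there were 7 members, without a count of all genes at that threshold. DESeq2, limma voom and every other alternative also called 0 members.

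Of 36 genes that signal downstream of the receptors, all were tested. Against naive cells 13 were called in WT CD62L- (8 higher, 5 lower), 14 in WT CD62L+ (9 and 5), 13 in Batf3-/- CD62L- (7 and 6) and 17 in Batf3-/- CD62L+ cells (10 and 7). These are 36.1%, 38.9%, 36.1% and 47.2% of the list, beside 30.1%, 27.2%, 29.3% and 30.2% of all genes. The genes named by the rule were called in the same direction in all 4 groups. Nfkb1 (the p105 and p50 NF-κB subunit) rose from 53.3 ± 8.3 CPM to 191 ± 2.42 in WT CD62L- (adjusted p = 7.97e-07), 96.5 ± 24.3 in WT CD62L+ (adjusted p = 0.000909), 132 ± 14.3 in Batf3-/- CD62L- (adjusted p = 2.14e-05) and 94.6 ± 7.45 CPM in Batf3-/- CD62L+ cells (adjusted p = 0.00105). Tank, a TRAF-binding adaptor, rose 1.91- to 2.27-fold (adjusted p 5.55e-06 to 5.33e-05), and Traf1, a TRAF adaptor, rose 1.42- to 1.6-fold (adjusted p 0.000682 to 0.00479).

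Traf4, a TRAF family member, fell from 58.8 ± 5.49 CPM to 23.6 ± 4.73, 29.5 ± 4.28, 30.3 ± 5.94 and 37.4 ± 6.19 CPM in WT CD62L-, WT CD62L+, Batf3-/- CD62L- and Batf3-/- CD62L+ cells (adjusted p 9.07e-05 to 0.0151). Cflar, an inhibitor of caspase-8, fell from 187 ± 14.2 CPM to 113 to 137 CPM as group means (adjusted p 0.00024 to 0.00858). Ikbkb, an IκB kinase, fell from 263 ± 32.5 CPM to 173 ± 16.6, 177 ± 11.7, 141 ± 5.86 and 158 ± 18.5 CPM (adjusted p 2.48e-05 to 0.00134). Birc2 (cIAP1) fell 1.4- to 1.71-fold (adjusted p 0.000125 to 0.00489). Between subsets 1 of the 36 was called, Nfkb1, in WT and on average (2.78% of the list beside 1.22% and 2.96% of all genes). It was 1.98-fold higher in CD62L- cells in WT (log2 0.98, SE 0.16, adjusted p = 0.00553) and 1.66-fold on average (log2 0.73, SE 0.11, adjusted p = 0.00199). Between recipients 0 were called by edgeR in CD62L-, in CD62L+ and on average, where 0.0501%, 0.00501% and 0.441% of all genes were. At an unadjusted p under 0.05 there were 3, 0 and 5 of the list, without a count of all genes at that threshold.

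In the mouse genome many of these genes are close neighbours. With the antisense gene left aside, 21 ligands and receptors have another within 100 kb, in 12 pairs of adjacent members. Neighbours did not always move alike against naive cells. Tnfrsf4 and Tnfrsf18 were both called higher, as were Tnfrsf1b and Tnfrsf8, 20.3 kb apart. Tnfsf4 was called higher beside Tnfsf18, 76.2 kb away and at 0, and Tnfsf14 beside Cd70, 39.7 kb away and at 0. Ltb fell in all 4 groups and Lta, 6.84 kb away, rose in 3.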

How the data were processed

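The authors deposited raw read counts per gene, with each gene's exon length in bases. The submitters' processing notes name mm10, STAR 2.7.3a, Subread 1.6.5 (featureCounts), Trimmomatic 0.36 and FastQC. Per the labels' protocols, RNA from sorted cells was amplified before library construction. The annotation release, the strand setting and whether mates were counted singly are not given in the sources used here; 61.0 to 69.5% of counts from 1 to 20 were even, so a count may not be 1 fragment. Reads are not independent molecules, so counting limits cover counting error only.

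All 15 libraries entered 1 fit over all genes (edgeR 4.0.16, quasi-likelihood, robust; R 4.3.3): filterByExpr with a minimum count of 10 kept 19942 genes, with TMM scaling, 5 groups and no block. Adjusted p is by Benjamini-Hochberg at 0.05, and SE is log2 fold change divided by the square root of F. CPM uses the TMM-scaled library size, and floors are 3 counts per group. No 2 libraries held identical counts. Same-number libraries deviated together among the primed groups (18 pairs, correlation of deviations over genes 0.11 to 0.35), so block values stand beside those comparisons. Between naive and primed groups the same-number correlation was 0.07 to 0.25. Over all groups the 60 pairs with different numbers lay at -0.3 to 0.07. Alternatives were RLE, DESeq2 1.42.0, limma 3.58.1 voom, 2 filters, the block, the compared groups alone and libraries left out. Values per library are given for members called between subsets or recipients and for the 4 with the largest mean log2 rise and fall among those called in all 4 primed groups (at least 1 CPM in the higher group). From the downstream list the 2 genes with the smallest adjusted p per direction in a comparison are named. The members and lists were chosen with earlier results of these data known. Promoter windows came from RefSeq tables (GRCm38.p6), figures from matplotlib 3.10.9.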

Additional observations from a re-analysis of the deposited data

Results flagged for a closer look

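For 3 genes every CD62L- library lay on one side of every CD62L+ library in WT recipients and on the other side in Batf3-/- recipients, 3 of 33 tested members where 65 of all 19942 tested genes (0.326%) did so. Tnfrsf9 was above in WT and below in Batf3-/- recipients, with an interaction of log2 -0.84 (SE 0.23, unadjusted p = 0.00238, edgeR adjusted p = 1.0). Tnfrsf1a was below in WT and above in Batf3-/- recipients, with an interaction of log2 0.77 (SE 0.24, unadjusted p = 0.00695, edgeR adjusted p = 1.0). Lta moved as Tnfrsf1a did, with an interaction of log2 0.44 (SE 0.17, unadjusted p = 0.0215, edgeR adjusted p = 1.0). None of these interactions passed the adjustment over all genes.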

How the results depend on the processing

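Of 96 calls of single members, 70 held under every alternative, 26 were lost under at least 1 and 0 changed direction. The calls of Tnfsf4, Tnfsf14, Tnfsf13b, Tnfrsf8 and Tnfrsf21 against naive cells are among the 96 and are read as descriptions. The counts of members called against naive cells stayed within 1.5 times the reported ones under every alternative. Between subsets, DESeq2 called 8 members in WT, 2 in Batf3-/- and 11 on average, limma voom 4 in Batf3-/- and 12 on average, and the fit of the compared groups alone 1 in Batf3-/- recipients. Between recipients, DESeq2 called 2 members in CD62L-, 1 in CD62L+ and 3 on average, limma voom 2 in CD62L+ and 2 on average, and the fit with no filter 1 in CD62L+ cells. With the replicate block, 7 members were called between subsets in WT, 2 in Batf3-/- and 12 on average, and 2 between recipients in CD62L+ cells and 2 on average. Against naive cells the block gave 23, 21, 21 and 24. Over all genes it called 34.6%, 31.8%, 33.9% and 34.8% there, beside 30.1%, 27.2%, 29.3% and 30.2% without it. The block ended the Tnfrsf21 call in Batf3-/- CD62L+ cells (adjusted p = 0.0541). Without the third CD62L- libraries of both recipients, 4 members were called between subsets and 0 between recipients on average. Leaving out 1 library at a time gave 1 to 3 calls between WT subsets, 3 to 7 between subsets on average and 0 to 1 between recipients on average. Calls over all genes moved too. Across all settings they numbered 121 to 824 between WT subsets and 26 to 432 between Batf3-/- subsets. On average they numbered 388 to 1259 between subsets and 36 to 620 between recipients. The causes of these movements were not tested. Genes under about 1 CPM, among them Cd40, Tnfrsf8 and Ltbr, rest on few counts in amplified libraries, which limits their precision. TMM, RLE and DESeq2 scaling left the median of all genes between -0.08 and 0.03.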
